A study of Mus musculus with 8 samples.

Results

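The BCL2 family decides whether a cell commits to death through its mitochondria. Expression of 10 of its genes was examined in bone marrow-derived macrophages (BMDMs). The genes were chosen by name, with earlier results of these data known. They comprise the anti-apoptotic genes Bcl2, Bcl2l1 and Mcl1, the effectors Bax and Bak1, and the BH3-only genes Bcl2l11, Bid, Bad, Bbc3 and Pmaip1. All 10 were listed among the 23761 genes of the deposited table. Of these 10, 9 were among the 10920 genes with a mean of at least 1 FPKM (fragments per kilobase of a transcript in proportion to all mapped fragments) that were tested between genotypes. Bcl2 fell under this minimum.

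RNA-sequencing had been performed on 8 libraries of BMDMs from mice aged 3 months, 4 of the LysM and 4 of the K2KO group. Mice of the LysM group were labelled LysM Cre/Cre, with Cre recombinase under control of the lysozyme M locus, which is active in myeloid cells. The K2KO group carried the same LysM Cre/Cre alleles together with KLF2 flox/flox, so both groups shared the Cre. Marrow was cultured in medium conditioned by L929 fibroblasts, a source of macrophage colony-stimulating factor, and the libraries were marked as vehicle. Libraries are numbered 0 to 3 within a genotype, as in the deposited table, whose column names hold a genotype and a number and do not identify a mouse. The sample titles are numbered from 1 to 4, so K2KO3 here need not be the sample with that title.

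The proteins of the family meet at the outer mitochondrial membrane. BAX and BAK form the pores that release cytochrome c. BCL2, BCL-XL (encoded by Bcl2l1) and MCL1 hold them in check, and the BH3-only proteins relay stress by binding the anti-apoptotic proteins, the effectors or both. Macrophages in culture depend on colony-stimulating factor for survival, and MCL1, a protein with rapid turnover, is one of the main survival proteins of myeloid cells.

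Klf2, the targeted gene, was at 44.1, 52.9, 64.7 and 72.8 FPKM in LysM and 45.5, 41.6, 59.2 and 59.3 FPKM in the K2KO libraries. The groups overlapped (log2 fold change -0.18, standard error, SE, 0.17, limma adjusted p = 0.460). The values sum over all exons and cannot tell whether the floxed ones were covered, and the direction of every comparison therefore refers to the libraries labelled K2KO.

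Summed FPKM was 497253 to 551608 in the LysM libraries and 448235 to 501965 in the K2KO-labelled libraries. Of the latter, only K2KO3 exceeded a LysM library (LysM0). FPKM hold no read counts, so how many fragments lie behind each value is not known. By the ratios of the smallest values, sequencing depth was 0.89 (K2KO2) to 1.34 (K2KO0) relative to LysM0. As a check of the cell type, 8 macrophage markers summed to 4039 to 4261 FPKM in LysM and to 3780 to 3946 FPKM in the K2KO-labelled libraries, so that these sums did not overlap. The marker sums were not scaled to the summed FPKM of each library, which had a lower range in the K2KO-labelled libraries. Cd68 was the most abundant of them and overlapped between the groups (mean of 1834 FPKM in LysM and 1779 FPKM in the K2KO-labelled libraries). Most of the difference in the sums lay in Cd14, a co-receptor for lipopolysaccharide, which was at 969 to 1099 FPKM and 664 to 930.2 FPKM without overlap and was not called (log2 fold change -0.32, limma adjusted p = 0.0630; -0.017 with quantile normalization). Cd14 passed without K2KO3 (limma adjusted p = 0.0308). Of the 8, 1 (12.5%) was differentially expressed, against 18.4% of all tested genes. It was Mertk, which was higher in the K2KO-labelled libraries (log2 fold change 0.36, SE 0.09, limma adjusted p = 0.0285). Markers of lymphocytes, fibroblasts, dendritic cells and of erythroid and mast cells were low. Their sums overlapped between the groups with a higher mean in the K2KO-labelled libraries. Those of lymphocytes averaged 1.29 FPKM in LysM and 2.14 FPKM in the K2KO-labelled libraries and reached at most 3.01 FPKM. For fibroblasts the means were 0.618 and 1.72 FPKM with a maximum of 3.34 FPKM, for dendritic cells 1.63 and 2.87 FPKM with a maximum of 4.26 FPKM, and for the 4 listed markers of erythroid and mast cells 0.890 and 1.43 FPKM with a maximum of 1.97 FPKM. Siglech and Kit, at most 0.712 and 0.394 FPKM, did not overlap between the groups and were higher in the K2KO-labelled libraries. Both were named after their values were seen. They lay under the tested minimum, so the 23.1% of all tested genes without overlap does not cover them. Among the dendritic cell markers, Zbtb46 had a lower mean in the K2KO-labelled libraries (0.0548 FPKM, against 0.0816 FPKM in LysM, with overlap) and the others a higher one. Neutrophil markers summed to 186 to 315 FPKM in LysM (mean 249.8) and 175 to 306 FPKM in the K2KO-labelled libraries (mean 250.2), with S100a9 the most abundant and Ly6g at no more than 0.36 FPKM. Of the 7 tested, 4 had a log2 fold change above 0, with a median of 0.017. Of the 7 tested neutrophil markers only Camp was differentially expressed, at 11.1 to 16.0 FPKM in LysM and 4.04 to 9.78 FPKM in the K2KO-labelled libraries (log2 fold change -1.14, SE 0.24, limma adjusted p = 0.0178). Mertk kept its call only without LysM0 or K2KO3 among the 8 fits that left out 1 library (limma adjusted p of 0.0639 to 0.0807 in the others). After correction of each library for the GC content and length of its transcripts, the log2 fold change of Mertk was 0.22 (limma adjusted p = 0.113) and that of Camp -1.05 (0.0280). Camp lost its call without LysM1, LysM3 or K2KO2 (0.0511, 0.0554 and 0.0542). The part of these marker differences in the values of the family was not tested. In RNA from whole cultures, fewer cells of a type cannot be told apart from less RNA per cell.

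Of the 9 tested members, 1 was differentially expressed, Bbc3, and it was lower in the K2KO-labelled libraries. Genes were taken as differentially expressed (called) where the limma adjusted p was under 0.05 and the log2 fold change was beyond 0.26 in either direction, as in the methods of the study. By this rule 18.4% of all tested genes were differentially expressed, 8.61% lower and 9.84% higher (53.3% of the calls were higher, 64.1% with upper-quartile scaling, 44.9% after correction for GC content and length and 47.7% with the replicate block added to that), so 1 of 9 (11.1%) is not more than the background. An unadjusted p under 0.05 was reached by 5 of 9 members, against 37.8% of all tested genes. The median log2 fold change of the 9 members was -0.08, with 6 of 9 below 0, against a median of 0.011 and 48.2% below 0 over all tested genes. Without K2KO3, 3 members were called (Bbc3, Bax and Bcl2l1), when 26.2% of all genes were. Without LysM3 or without K2KO2 none was, and the limma adjusted p of Bbc3 was then 0.0519 and 0.0514. Over all tested genes, 543 and 670 were called in these fits, against 2014 with all libraries.

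**Figure D1:**
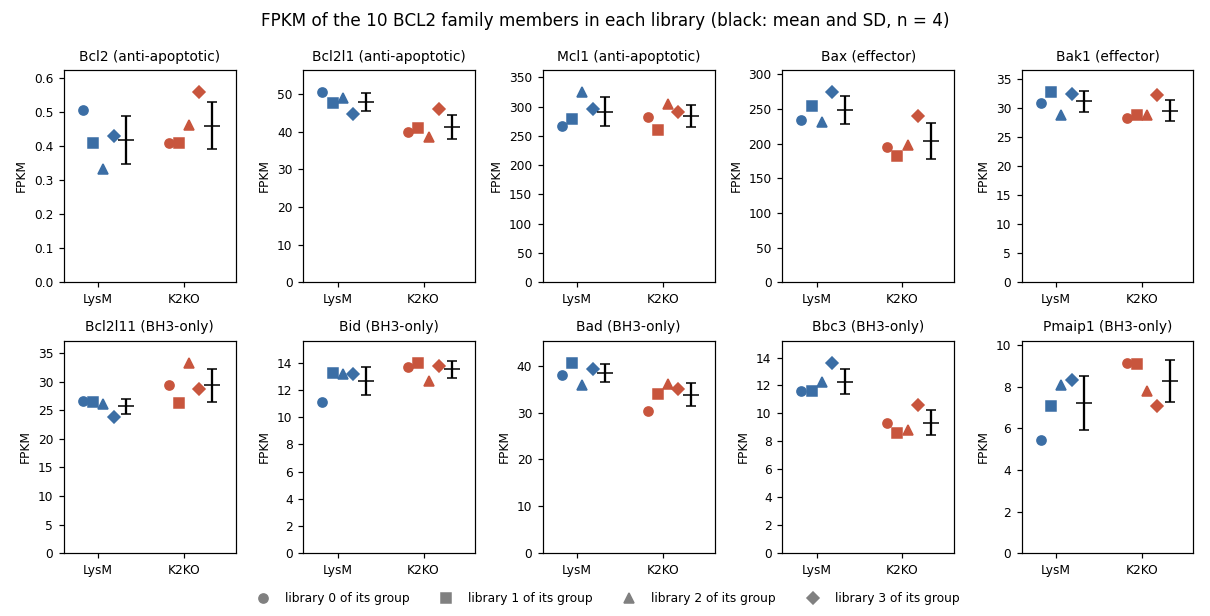
FPKM of each of the 10 members (vertical axes, linear from 0) in the 4 LysM (blue) and 4 K2KO (red) libraries, with marker shapes for the library number and the mean and SD (n = 4) in black. Only the Bbc3 groups do not overlap, at 11.6 to 13.6 FPKM in LysM and 8.63 to 10.6 FPKM in K2KO, and K2KO3 lies highest of the K2KO libraries for Bbc3, Bax and Bcl2l1.

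Promoter sequence of the members was taken from RefSeq on GRCm38.p6 (the assembly behind mm10), which held entries for 9 of the 10 genes, all but Pmaip1. KLF proteins bind CACCC elements. The windows shown are 250 bases upstream of an annotated start, 5′ to 3′ on the gene's strand, and capitals mark CACCC or its reverse complement GGGTG. They are shown because Bbc3 was the member that passed the test, Bcl2l11 a BH3-only gene with a log2 fold change above 0, and Bax the effector with the largest fold change. The windows are chr7:16309333-16309582 (plus strand) and chr7:16310181-16310430 (plus strand) for separate RefSeq starts of Bbc3, which lie inside the gene as annotated by GENCODE (from 16308393), chr2:128125788-128126037 (plus strand) and chr2:128127325-128127574 (plus strand) for separate starts of Bcl2l11 and chr7:45466899-45467148 (minus strand) for Bax.
Bbc3, start A: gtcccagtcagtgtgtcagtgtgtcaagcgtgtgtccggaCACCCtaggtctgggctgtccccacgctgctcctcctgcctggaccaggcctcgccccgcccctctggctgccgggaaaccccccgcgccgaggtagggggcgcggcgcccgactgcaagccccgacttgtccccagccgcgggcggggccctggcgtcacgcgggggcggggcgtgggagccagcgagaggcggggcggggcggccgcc
Bbc3, start B: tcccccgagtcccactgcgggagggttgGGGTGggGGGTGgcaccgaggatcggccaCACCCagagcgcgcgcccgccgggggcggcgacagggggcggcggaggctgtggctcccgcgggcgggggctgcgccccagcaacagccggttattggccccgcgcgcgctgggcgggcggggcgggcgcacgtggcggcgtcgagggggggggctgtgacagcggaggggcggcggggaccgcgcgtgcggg
Bcl2l11, start A: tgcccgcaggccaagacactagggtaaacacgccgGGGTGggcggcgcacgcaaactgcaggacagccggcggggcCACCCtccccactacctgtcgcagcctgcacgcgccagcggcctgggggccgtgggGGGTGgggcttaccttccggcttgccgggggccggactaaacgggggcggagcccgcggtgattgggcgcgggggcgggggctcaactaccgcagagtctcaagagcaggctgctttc
Bcl2l11, start B: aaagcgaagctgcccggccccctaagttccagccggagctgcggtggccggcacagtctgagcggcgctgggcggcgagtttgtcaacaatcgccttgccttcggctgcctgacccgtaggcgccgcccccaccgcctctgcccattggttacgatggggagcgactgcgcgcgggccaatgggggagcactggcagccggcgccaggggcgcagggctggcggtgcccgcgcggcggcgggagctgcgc
Bax: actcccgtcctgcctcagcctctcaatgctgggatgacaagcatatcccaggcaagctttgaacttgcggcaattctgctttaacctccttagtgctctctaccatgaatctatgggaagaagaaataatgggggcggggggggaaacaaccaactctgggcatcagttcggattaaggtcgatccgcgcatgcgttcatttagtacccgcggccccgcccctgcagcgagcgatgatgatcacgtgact
The Bbc3 window of start A held 1 match and that of start B 3, and a further Bbc3 window that overlaps the latter (from 16310011 to 16310260, not printed) held 3. Of the Bcl2l11 windows, that of start A held 3 and that of start B 0, and the Bax window held 0. Of 32851 such windows of all genes, 52.0% held at least 1 match on either strand and 6.9% held at least 3. The windows were rich in G and C, at 76.4% and 81.6% for Bbc3, 72.0% and 73.2% for Bcl2l11 and 54.0% for Bax. A match is a description of the letters and not a binding site.

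Bbc3 encodes PUMA, a BH3-only protein and a direct target of p53 that binds every anti-apoptotic member. The gene lies on chromosome 7 from 16308393 to 16318205 on the plus strand. Bbc3 was expressed at 11.6, 11.6, 12.3 and 13.6 FPKM in LysM and 9.28, 8.63, 8.78 and 10.6 FPKM in the K2KO-labelled libraries. Each of the latter was below every LysM library, with K2KO3 nearest to them. The mean fell from 12.3 ± 0.919 to 9.33 ± 0.905 FPKM (SD, n = 4), a ratio of 0.759. On the log2(FPKM + 0.1) scale, which understates the change of genes with low values, the fold change was -0.40 (SE 0.08, 95% interval -0.58 to -0.21, limma adjusted p = 0.0166). The exact two-sided permutation test gave p = 0.0286, the smallest that 35 splits of 4 against 4 allow. Over all tested genes, 23.1% had groups that did not overlap. Bbc3 also had the highest transcript GC content of the 10 members, 68.0%. When each library was corrected for the GC content and length of its transcripts, the log2 fold change of Bbc3 was -0.14 (SE 0.07, limma adjusted p = 0.220), its groups overlapped (19.3% of all tested genes then had groups that did not), and none of the 9 members was called, against 9.87% of all tested genes.

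Pmaip1 encodes NOXA, which binds MCL1 and promotes its degradation. It lies on chromosome 18 from 66458533 to 66465565 on the plus strand. Pmaip1 was at 5.44, 7.07, 8.05 and 8.29 FPKM in LysM and 9.11, 9.07, 7.77 and 7.06 FPKM in the K2KO-labelled libraries. The 2 highest libraries were K2KO0 and K2KO1 and the lowest was LysM0, but the groups overlapped. On the log2 scale the fold change was 0.20 (95% interval -0.11 to 0.52, limma adjusted p = 0.311). It was -0.03 after the GC and length correction, at the lowest GC content among the members, 41.5%.

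Bcl2l11 encodes BIM, the BH3-only protein that is induced when cells lose growth factor signals. It lies on chromosome 2 from 128126038 to 128162547 on the plus strand. Expression was 26.5, 26.4, 26.1 and 23.8 FPKM in LysM and 29.5, 26.2, 33.2 and 28.6 FPKM in the K2KO-labelled libraries. Of the libraries labelled K2KO, 3 exceeded every LysM library, and K2KO1 lay among them. Its log2 fold change was 0.19 (SE 0.08, 95% interval 0.01 to 0.36), which did not pass over all genes (limma adjusted p = 0.110).

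Bad encodes a BH3-only protein that survival kinases such as AKT hold inactive by phosphorylation. It lies on chromosome 19 from 6941861 to 6951899 on the plus strand. Its FPKM were 38.0, 40.5, 35.9 and 39.3 in LysM and 30.3, 34.0, 36.04 and 34.97 in the K2KO-labelled libraries. Only LysM2 and K2KO2 prevented a full separation, by less than 0.1 FPKM. The log2 fold change was -0.19 (95% interval -0.34 to -0.03, limma adjusted p = 0.0843; exact permutation test, p = 0.0571). After the GC and length correction it was -0.05 (limma adjusted p = 0.580). Gpr137 lies on the opposite strand and covers 20.5% of the annotated exon bases of Bad. Whether fragments were assigned by strand is not given in the sources used here, so reads of both genes may be mixed. Bid encodes the BH3-only protein that caspase-8 cleaves, linking death receptors to mitochondria. It was at 11.1 to 13.2 FPKM in LysM and 12.6 to 14.0 FPKM in the K2KO-labelled libraries (log2 fold change 0.09, 95% interval -0.07 to 0.25, limma adjusted p = 0.352). It lies on chromosome 6 from 120891930 to 120916853 on the minus strand, and its exons share 628 bases with its convergent neighbour Bcl2l13. Summed over the 5 BH3-only members, expression was 92.7 to 98.8 FPKM in LysM and 91.9 to 98.4 FPKM in the K2KO-labelled libraries.

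Bax, the effector that moves from the cytosol to mitochondria on activation, was the second most abundant member. It was at 234, 255, 231 and 274 FPKM in LysM and 196, 181, 197 and 240.1 FPKM in the K2KO-labelled libraries. K2KO0, K2KO1 and K2KO2 lay below every LysM library, and K2KO3 lay above LysM0 and LysM2. Its log2 fold change was -0.29 (SE 0.10, 95% interval -0.51 to -0.07, limma adjusted p = 0.0602), which exceeded the fold threshold and missed the adjusted p. Without K2KO3 it passed (log2 fold change -0.37, limma adjusted p = 0.0109). With a block on the column number it also passed (limma adjusted p = 0.0351), although these numbers did not pair the libraries. Among the 11 alternatives with all libraries and the 8 without 1 library, these were its only calls. With quantile normalization the log2 fold change was -0.11 (limma adjusted p = 0.30), and with no filter on low values the limma adjusted p was 0.152. After the GC and length correction the log2 fold change was -0.13 (limma adjusted p = 0.187). Bax lies on chromosome 7 from 45461697 to 45466898 on the minus strand. The deposited table gives it a locus that runs on to 45526268, over 4 further listed genes that include Ppp1r15a and Nucb1. The annotated gene Gm45808 shares 192 exon bases with Bax on the same strand, so its FPKM may include reads of that transcript.

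Bak1 encodes the effector that resides in the outer mitochondrial membrane. It lies on chromosome 17 from 27019810 to 27029009 on the minus strand, and Ggnbp1 covers 25.5% of its exon bases on the opposite strand. Bak1 was at 31.0, 32.7, 28.8 and 32.5 FPKM in LysM and 28.4, 28.9, 28.9 and 32.2 FPKM in the K2KO-labelled libraries, with K2KO3 apart from the other 3. The groups overlapped (log2 fold change -0.08, 95% interval -0.23 to 0.07, limma adjusted p = 0.410).

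Mcl1 was the most abundant member in both genotypes. It lies on chromosome 3 from 95658788 to 95663176 on the plus strand. It was at 267, 279, 324 and 295 FPKM in LysM and 282, 259.5, 305 and 290.2 FPKM in the K2KO-labelled libraries. The values interleaved (log2 fold change -0.03, 95% interval -0.22 to 0.15, limma adjusted p = 0.782), and the sign turned with quantile normalization (0.15) and upper-quartile scaling (0.010). Mcl1 made up 84.0% to 86.8% of the summed FPKM of Bcl2, Bcl2l1 and Mcl1 in LysM and 86.2% to 88.7% in the K2KO-labelled libraries.

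Bcl2l1, which encodes BCL-XL, lies on chromosome 2 from 152780668 to 152831728 on the minus strand. It was at 50.5, 47.7, 49.1 and 44.8 FPKM in LysM and 39.9, 41.0, 38.6 and 45.9 FPKM in the K2KO-labelled libraries. As with Bax, 3 libraries lay below every LysM library and K2KO3 did not, being above LysM3. The log2 fold change was -0.22 (SE 0.07, 95% interval -0.37 to -0.06, limma adjusted p = 0.0543), and without K2KO3 it was -0.27 (limma adjusted p = 0.0145). In the other fits without 1 library the limma adjusted p was 0.0802 to 0.138. Bcl2l1 was called in none of the 11 alternatives with all libraries (limma adjusted p of 0.0511 to 0.231). Its log2 fold change was -0.14 with quantile normalization (limma adjusted p = 0.22) and -0.16 after the GC and length correction (0.143). Bcl2, the founding member of the family, lies on chromosome 1 from 106538178 to 106714274 on the minus strand and was listed at only 0.332 to 0.504 FPKM in LysM and 0.409 to 0.557 FPKM in the K2KO-labelled libraries. Its groups overlapped (exact permutation test, p = 0.429). When genes with a mean of at least 0.1 FPKM were tested, its log2 fold change was 0.11 (SE 0.18, limma adjusted p = 0.694).

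**Figure D2:**
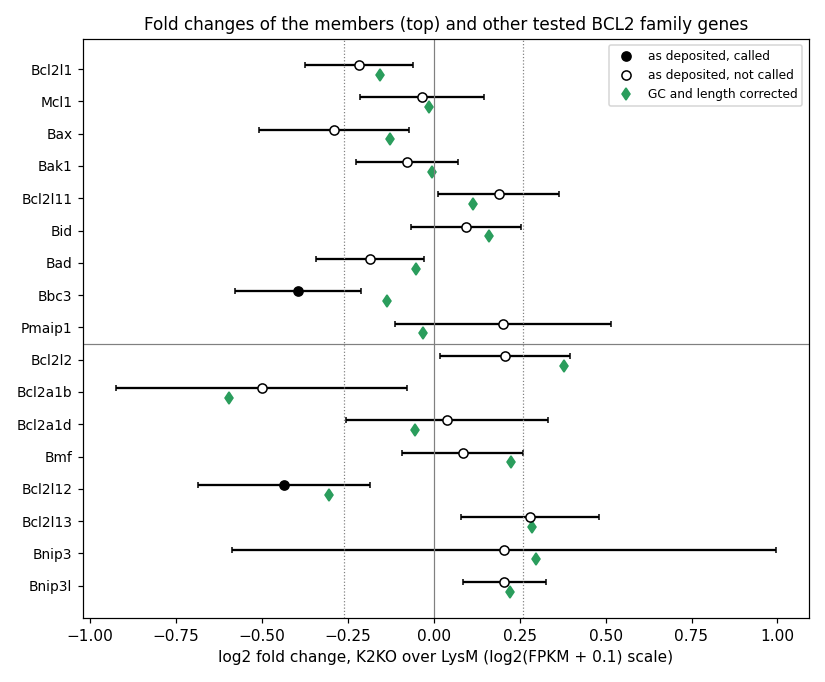
Log2 fold change of the libraries labelled K2KO over LysM (horizontal axis) for the 9 tested members (above the line) and 8 other tested BCL2 family genes (below it), with 95% intervals from limma as bars, filled circles for called genes and green diamonds for the value after correction for GC content and transcript length. Bbc3 (-0.40) and Bcl2l12 (-0.44) are the called genes, and dotted lines mark the fold threshold of 0.26.

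Ordered by mean FPKM, a level per kilobase of transcript, the LysM libraries ran Mcl1 (291), Bax (248), Bcl2l1 (48.0), Bad (38.4), Bak1 (31.2), Bcl2l11 (25.7), Bid (12.7), Bbc3 (12.3), Pmaip1 (7.21) and Bcl2 (0.418). Of the neighbours in this order, Mcl1 and Bax overlapped in their LysM libraries, and so did Bid and Bbc3. In the libraries labelled K2KO the order of the genes was the same. There Mcl1 and Bax no longer overlapped, nor did Bid and Bbc3, whereas Bad and Bak1, Bak1 and Bcl2l11, and Bbc3 and Pmaip1 did. All 10 members kept their rank by overall mean when the libraries were quantile normalized.

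The fold changes of the members followed the GC content of their transcripts. Across the 9 tested members, which were measured in the same 8 libraries, Spearman's rho between the log2 fold change and GC content was -0.95, and across 10899 tested genes it was -0.40. These are descriptions across genes, which are not independent replicates. Pmaip1, Bcl2l11 and Bid, at 41.5%, 49.4% and 51.3% GC, had fold changes above 0, and the 6 members from 54.9% (Mcl1) to 68.0% (Bbc3) had fold changes below 0. Among tested genes within 1 percentage point of the GC content of Bax, the median log2 fold change was -0.15 and 21.8% were called lower. Near Bcl2l11 the median was 0.04 and 6.39% were called lower. Only 11 tested genes lay within 1 point of Bbc3, with a median of -0.52, and 9 of these 11 (81.8%) had a lower fold change than Bbc3. Of the genes that close to Bax, 25.1% had a lower fold change than Bax, and the share was 26.1% for Bcl2l1, 74.8% for Bcl2l11, 42.1% for Bad, 56.0% for Bak1, 58.4% for Mcl1, 65.5% for Bid and 52.6% for Pmaip1. After the correction the log2 fold change was 0.11 for Bcl2l11, 0.16 for Bid, -0.0046 for Bak1, -0.16 for Bcl2l1 and -0.013 for Mcl1, none of them called, and that of Klf2 was -0.0030. The part of GC content in the differences between genotypes was not tested.

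The tilt with GC content can also be read in each library. For the eighth of the tested genes with the highest GC content and the eighth with the lowest, the median deviation from the mean of all libraries was computed, and the difference was taken. It was 0.19, 0.22, 0.0093 and 0.26 in LysM0 to LysM3. In K2KO0 to K2KO2 it was -0.18, -0.26 and -0.29, and in K2KO3 it was 0.02. K2KO3, the library in which Bbc3, Bax, Bak1 and Bcl2l1 were highest of their group, was the one without the negative tilt of the other libraries labelled K2KO. Bad and Mcl1, which are also above the median GC content of all tested genes (50.7%), were highest in K2KO2, the library with the most negative tilt.

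**Figure D3:**
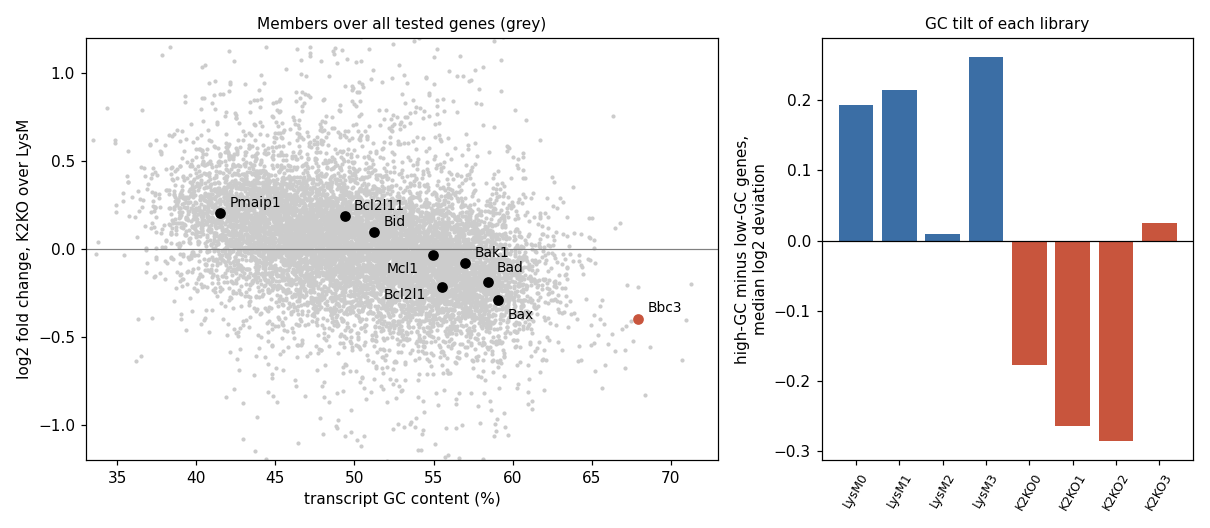
Left, log2 fold change against transcript GC content (%) for all tested genes (grey) and the 9 tested members (black, Bbc3 in red as the called member), where genes beyond the vertical axis are not drawn. Right, the GC tilt of each library, as the median log2 deviation of the eighth of genes highest in GC minus that of the eighth lowest, in LysM (blue) and K2KO (red), which runs from -0.29 in K2KO2 to 0.26 in LysM3 and is 0.02 in K2KO3.

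Beyond the 10 members, 15 further BCL2 family genes were listed and 8 of them were tested. Of these 8, 1 (12.5%) was called, against 18.4% of all tested genes. It was Bcl2l12, which encodes an atypical family protein outside the core death machinery. It was at 14.8, 13.8, 15.1 and 14.5 FPKM in LysM and 9.98, 10.2, 9.42 and 13.8 FPKM in the K2KO-labelled libraries. K2KO3 stood apart from its group and overlapped the LysM libraries. The log2 fold change was -0.44 (SE 0.11, limma adjusted p = 0.0286). It was called in 2 of the 8 fits without 1 library, those without LysM0 and without K2KO3, and its limma adjusted p was 0.0607 to 0.0757 in the others. It was -0.31 after the GC and length correction (limma adjusted p = 0.0654). Gm15545 covers 29.0% of its exon bases on the opposite strand.

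Bcl2a1b was the most abundant of the further genes and encodes a copy of A1, an anti-apoptotic protein of myeloid cells that NF-κB induces. It was at 142, 161, 115 and 121 FPKM in LysM and 95.3, 69.5, 88.8 and 135 FPKM in the K2KO-labelled libraries, where K2KO3 again overlapped the LysM libraries (log2 fold change -0.50, SE 0.19, limma adjusted p = 0.0851). Without K2KO3 it passed, at -0.67 (limma adjusted p = 0.0123). Its transcript is 99.1% identical to that of Bcl2a1d over 817 bases, Gm29094 covers 49.1% of its exon bases on the same strand, and reads of the copies cannot be told apart with certainty. Bcl2a1d was at 5.82 to 7.42 FPKM in LysM and 5.45 to 8.08 FPKM in the K2KO-labelled libraries, and Bcl2a1a had a mean under 1 FPKM in both. Summed over the listed copies, expression was 122 to 169 FPKM and 78.9 to 143 FPKM.

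Among the other further genes, Bnip3l, a mitophagy receptor, was at 21.2 to 22.9 FPKM in LysM and 24.1 to 26.2 FPKM in the K2KO-labelled libraries, with no overlap. Its limma adjusted p was 0.0304 and its log2 fold change of 0.20 was under the fold threshold. Bcl2l13, an outer membrane protein that also serves mitophagy, was at 2.41 to 2.74 and 2.89 to 3.48 FPKM without overlap (log2 fold change 0.28, limma adjusted p = 0.0525), and passed with upper-quartile scaling (0.045), with no trend (0.040), without LysM0 (0.0432) and without K2KO3 (0.0386). It meets Bid in their shared exon bases. Bcl2l2, which encodes the anti-apoptotic BCL-W, had a log2 fold change of 0.21 (limma adjusted p = 0.104). After the GC and length correction it was 0.38 (limma adjusted p = 0.0658), which passed with the replicate block added (0.0407). Its exons overlap those of Gm20521 on the same strand. Bmf, a BH3-only gene, was at 3.91 to 4.34 and 3.90 to 4.68 FPKM (limma adjusted p = 0.452). Bnip3 ranged from 10.5 FPKM in LysM0 to 32.9 FPKM in LysM3 (limma adjusted p = 0.695), and near-identical copies of it are annotated. Bok, Bik, Bcl2l14, Bcl2l15 and Bcl2a1a had a mean under 1 FPKM, and Hrk and Bcl2l10 were listed at 0 in all 8 libraries.

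Genes that act before and after the family were followed in lists written for this purpose, 61 genes listed and 56 tested. Of the 56, 4 were called higher and 3 lower, together 12.5%, against 18.4% of all tested genes (9.84% higher and 8.61% lower). Their median log2 fold change was 0.02, and that of all tested genes was 0.011. Downstream, none of the 7 tested genes of the apoptosome and its caspases (among them Apaf1 and Casp9) was called. An unadjusted p under 0.05 was reached by 1 of the 7, against 37.8% of all tested genes. Of the 9 mitochondrial partners, 1 was called, Endog, a mitochondrial nuclease. It was at 12.5, 15.7, 14.6 and 13.9 FPKM in LysM and 9.80, 8.37, 6.91 and 11.99 FPKM in the K2KO-labelled libraries. The groups did not overlap (log2 fold change -0.63, SE 0.15, limma adjusted p = 0.0240), and the call was lost in 6 of the 8 fits without 1 library, all but those without LysM0 and K2KO3 (limma adjusted p of 0.053 to 0.0672).

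The inhibitor of apoptosis proteins restrain caspases once the mitochondrial pore has opened, and 2 of their 5 tested genes were called, both higher in the K2KO-labelled libraries, where 9.84% of all tested genes were called higher. None of the 5 was called after the GC and length correction. Xiap, the direct caspase inhibitor, was at 7.84, 7.84, 7.72 and 6.86 FPKM in LysM and 9.83, 11.2, 10.7 and 8.51 FPKM in the K2KO-labelled libraries (log2 fold change 0.40, SE 0.09, limma adjusted p = 0.0208). Birc6, a very large ubiquitin ligase of the family, was at 2.25 to 2.42 and 2.74 to 3.39 FPKM (log2 fold change 0.41, SE 0.09, limma adjusted p = 0.0192). In both genes each library labelled K2KO exceeded every LysM library and K2KO3 was the lowest of its group. Their transcripts are poor in GC, at 41.1% and 43.9%. The call of Xiap was lost without LysM1, LysM3, K2KO0, K2KO1 or K2KO2 (limma adjusted p of 0.0503 to 0.0647) and that of Birc6 without LysM3, K2KO0, K2KO1 or K2KO2 (0.0537 to 0.0593). After the GC and length correction their log2 fold changes were 0.19 and 0.24, both under the fold threshold (limma adjusted p = 0.0906 and 0.0694). That of Endog, at 64.3% GC, was -0.41 (limma adjusted p = 0.0662).

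Of 10 tested genes whose proteins modify or bind BCL2 family proteins, 1 was called. It had the largest fold change among the tested genes of the cell death lists. Of all tested genes 18.4% were called, 9.84% higher. Usp9x encodes a deubiquitinase that stabilises MCL1. It was at 1.29, 1.16, 0.855 and 0.906 FPKM in LysM and 2.61, 2.95, 2.24 and 1.47 FPKM in the K2KO-labelled libraries. The groups did not overlap, and K2KO3 lay nearest to LysM0. The log2 fold change was 1.04 (SE 0.22, limma adjusted p = 0.0178), and 0.79 after the GC and length correction (SE 0.20, limma adjusted p = 0.0425). It was called in 5 of the 8 fits without 1 library, and not without LysM3, K2KO0 or K2KO2 (limma adjusted p of 0.0546, 0.0537 and 0.0517). With no filter on low values it was not called either (0.0707). Usp9x is low in FPKM and poor in GC (40.6%). Huwe1 and Fbxw7, which encode ubiquitin ligases that mark MCL1 for degradation, had log2 fold changes of 0.17 and -0.10 and were not called (limma adjusted p = 0.103 and 0.290). After the correction, when 9.87% of all tested genes were called, Fbxw7 was called (-0.30, limma adjusted p = 0.0309, but 0.0524 with the replicate block added), as was Becn1 (0.27, limma adjusted p = 0.0321), whose log2 fold change as deposited, 0.23, was under the fold threshold (limma adjusted p = 0.0351).

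Upstream, 1 of 9 tested stress kinases and transcription factors (11.1%) was called, against 18.4% of all tested genes. Mapk9, which encodes the stress kinase JNK2, was at 9.95, 9.41, 10.3 and 9.35 FPKM in LysM and 11.9, 13.1, 11.7 and 12.6 FPKM in the K2KO-labelled libraries. All the latter were higher (log2 fold change 0.33, SE 0.06, limma adjusted p = 0.0123), which held in all 8 fits without 1 library. Corrected for GC content and length, the log2 fold change was 0.16, under the fold threshold (limma adjusted p = 0.123). Trp53, whose product drives Bbc3, Pmaip1 and Bax, was at 26.8 to 29.8 FPKM in LysM and at 31.1 to 34.7 FPKM in the K2KO-labelled libraries, without overlap, and was not called (log2 fold change 0.17, limma adjusted p = 0.0706). Foxo3, a driver of Bcl2l11 and Bbc3, had a log2 fold change of -0.06 (limma adjusted p = 0.545). In the death receptor arm, 1 of 7 tested genes (14.3%) was called, again against 18.4%, the adaptor Tradd, whose groups overlapped (log2 fold change -0.27, SE 0.08, limma adjusted p = 0.0462; -0.08 and 0.351 after the correction). Of the 11 alternatives with all libraries Tradd was called in 3, and not with a pseudocount of 1, either lower filter, either scaling, no trend or the correction with or without the block. It was called in 1 of the 8 fits without 1 library, that without K2KO3, and had a limma adjusted p of 0.0549 to 0.12 in the others. Casp8, which encodes the caspase that cleaves BID, was at 30.6 to 32.4 FPKM in LysM and at 33.7 to 38.7 FPKM in the K2KO-labelled libraries, and its log2 fold change of 0.21 (limma adjusted p = 0.0347) was under the fold threshold, was 0.09 after the correction (limma adjusted p = 0.189), and passed with quantile normalization (0.27, limma adjusted p = 0.0232).

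**Figure D4:**
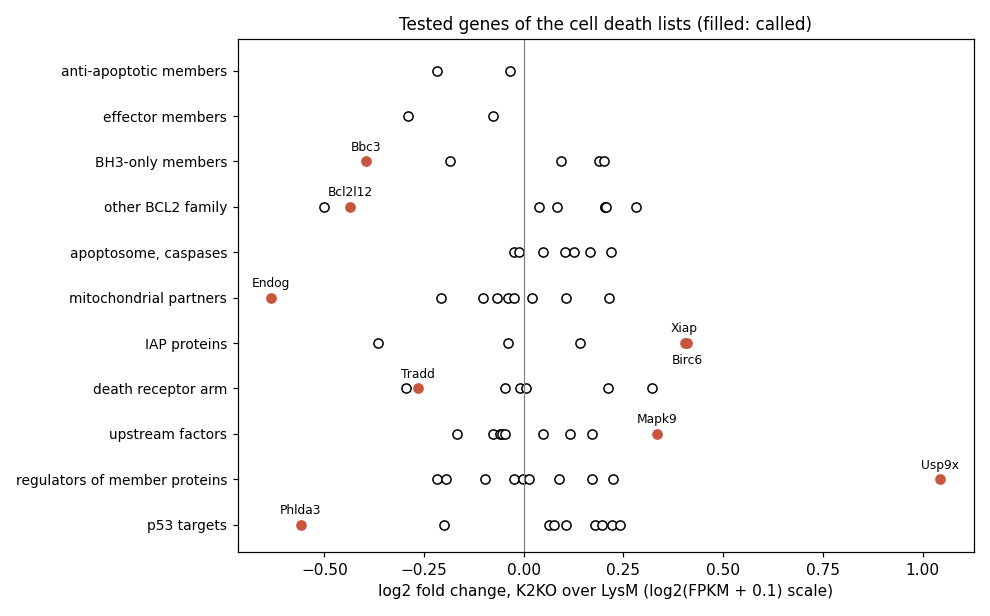
Log2 fold change of the libraries labelled K2KO over LysM (horizontal axis) for each tested gene of the member groups and of the lists before and after the BCL2 family (rows), with filled red circles and names for called genes. Most circles lie between -0.50 and 0.50, with Usp9x at 1.04, Endog at -0.63 and Phlda3 at -0.56 beyond that range.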

How the data were processed

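Total RNA of BMDMs from 4 LysM and 4 K2KO mice was sequenced with a stranded kit. Alignment was to mm10 with TopHat2, and the authors derived FPKM from it with Cufflinks, per the methods. The submitters' processing notes also name STAR and Cuffdiff. The deposited table holds FPKM per library, and FPKM are not counts, so no count-based test or counting error could be given. It lists 23761 genes, of which 23645 were matched by identifier to GENCODE release M21 (GRCm38) for positions, GC content and length (medians over transcripts).

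Log2(FPKM + 0.1) of genes with a mean of at least 1 FPKM was compared with limma 3.58.1 in R 4.3.3 (lmFit, eBayes with a trend, no covariate), with Benjamini-Hochberg adjustment over all tested genes. The relative depth is the commonest ratio of values under 0.1 FPKM. The correction for GC content and length is a local regression per library (span 0.3). Single values were compared by exact permutation with scipy 1.17.1.

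Members and lists were chosen with earlier results of these data known. Named are Klf2, all members, the tested BCL2 family genes, called genes of the lists (at most 4 a list) and marker genes. Becn1, Fbxw7, Huwe1, Trp53, Foxo3, Casp8, Cdkn1a, Mdm2, Cd14, Mcm2, Siglech and Kit were added after their values were seen. So were Ccng1 and Zbtb46, which are not among the named genes checked for outlying libraries or followed across all alternatives. Copies share at least 95% identity over at least 200 bases. Nothing in the sources used here ties a column to a mouse, and p-values measure the spread between libraries. Alternatives were the pseudocount, the filter, scaling, the trend, the fold threshold, the GC and length correction, a block on the column number and each library left out.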

Additional observations from a re-analysis of the deposited data

Results flagged for a closer look

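Of 86 groups of 4 libraries among the named genes, 7 held a library far from the other 3 for its range, where chance flags about 1 in 20, or 4.3. In K2KO3, 3 genes stood apart from the other libraries labelled K2KO. Bak1 was at 32.2 FPKM and Bcl2l12 at 13.8 FPKM, above the rest, and Bnip3l at 24.1 FPKM, below it. In LysM3, Bcl2l11 was lowest at 23.8 FPKM and Xiap lowest at 6.86 FPKM. Bid was at 11.1 FPKM in LysM0, below the other LysM libraries. Among the LysM libraries, Kit was highest in LysM2 at 0.177 FPKM, which was below every library labelled K2KO. In each of the K2KO3 values the library lay on the side of the LysM group.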

How the results depend on the processing

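Across the table, 2014 genes were called, against 483 with no filter on low values, 1076 after the GC and length correction, 1006 with that correction and the replicate block, and 543 (without LysM3) to 2863 (without K2KO3) with 1 library left out, 753 without LysM1, 1111 without LysM2, 819 without K2KO0, 823 without K2KO1 and 670 without K2KO2. The number of called members was 1, and 0 with no filter, after the correction, and with the correction and the block. It was 0 to 3 with 1 library left out. Non-overlapping members numbered 1, against 23.1% of all tested genes, and 0 after the correction with or without the block. The share of all tested genes after the correction was 19.3%. With 1 library left out 1 to 3 members did not overlap, and the share over all genes was not computed for these fits. The numbers that end the column names did not pair the libraries (correlations of -0.0702, 0.0203, 0.0729 and -0.057 for numbers 0 to 3, with 1 LysM library closest to its own number), and the replicate block gave 2057 genes and 2 members (Bbc3 and Bax). Among the named genes that were tested, signs turned for these, none of them called: Mcl1 (0.15 with quantile normalization, 0.010 with upper-quartile scaling, -0.075 to 0.019 with 1 library left out), Pmaip1 (-0.032 after the correction, also with the block), Bcl2a1d (-0.023 with quantile normalization, -0.053 after the correction, also with the block, -0.044 to 0.142 with 1 library left out), Bmf (-0.018 with quantile normalization), Bnip3 (-0.14 to 0.45 with 1 library left out), Foxo3 (0.068 after the correction, also with the block), Cd68 (0.29 with quantile normalization, 0.0010 with upper-quartile scaling, 0.018 after the correction, also with the block) and S100a9 (0.081 with quantile normalization, -0.23 to 0.11 with 1 library left out). Bbc3 kept its direction under the 19 alternatives and was called in 8 of 11 with all libraries and 6 of 8 without 1. The depth in fragments is unknown, so a value near 0, as for Hrk, was not read as absence.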

Other observations

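Other targets of p53, the transcription factor that drives Bbc3, were followed as a list. Of 9 tested genes, 1 was called (against 18.4% of all tested genes), Phlda3, an inhibitor of AKT, which fell (log2 fold change -0.56, SE 0.16, limma adjusted p = 0.0416; -0.43 and 0.0857 after the GC and length correction). Its LysM libraries were at 7.16, 9.03, 9.68 and 10.997 FPKM and the libraries labelled K2KO at 6.65, 4.96, 5.49 and 7.90 FPKM, with K2KO3 above LysM0. Phlda3 was called in 6 of the 11 alternatives with all libraries and lost its call with a minimum of 0.1 FPKM (limma adjusted p = 0.0551), no filter (0.145), no trend (0.0554) and the correction with or without the block. It was called in 2 of the 8 fits without 1 library, those without LysM0 and K2KO3 (limma adjusted p of 0.0772 to 0.112 in the others). Ccng1 was higher in the K2KO-labelled libraries, with overlap, at a log2 fold change of 0.24 (limma adjusted p = 0.0462), under the fold threshold. After the correction that of Ccng1 was -0.05 (limma adjusted p = 0.584). The fold changes of 7 of the 9 genes were above 0, with a median of 0.11, or 0.01 after the correction, where 48.2% of all tested genes were below 0 with a median of 0.011. Cdkn1a, the cell cycle inhibitor, had a log2 fold change of 0.08 (limma adjusted p = 0.574), and Mdm2, the ubiquitin ligase of p53, one of 0.11 (limma adjusted p = 0.331). Of 4 tested proliferation markers none was called by limma, against 18.4% of all tested genes, and the median log2 fold change was -0.04. Mcm2, a helicase subunit, was the 1 with an unadjusted p under 0.05, which 37.8% of all tested genes reached. It was at 5.40 to 5.89 FPKM in LysM and 4.36 to 5.33 FPKM in the K2KO-labelled libraries (log2 fold change -0.21, limma adjusted p = 0.0916, and -0.30 and 0.0449 with quantile normalization). The most abundant, Pcna, was at 79.3 to 113 FPKM in LysM and 88.5 to 128 FPKM in the K2KO-labelled libraries (log2 fold change 0.21, limma adjusted p = 0.283). Cdkn1a, Mdm2, Ccng1 and Mcm2 were named after their values were seen.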
